A study of Danio rerio with 17 samples.

Results

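DNA replication and mitosis genes were examined in the livers of transgenic zebrafish on a normal or an overfeeding diet, with or without Oligo-Fucoidan (OF). The gene set was a fixed list of 34 genes, 18 of DNA replication and 16 of mitosis, grouped by function and proposed with earlier results of these data known, and all 34 were found among the 20908 genes of the array by gene symbol. Each gene was represented by its brightest probe set over the 17 arrays, and 17 of the 34 genes had several probe sets.

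The 17 arrays came from liver of fish labelled female and 6 months old. All fish carried the hepatitis B virus X antigen (HBx) and the src oncogene under the liver promoter of fabp10a, so no group was free of oncogenes, and HBx,src,p53 fish were in addition p53-/+. Fish on the normal diet (NOR) received about 6.9 mg and fish with diet-induced obesity (DIO) about 83 mg of Artemia cysts per fish and day. The DIO+OF fish were on the DIO diet and were gavaged with OF, a sulfated polysaccharide of brown seaweed, at 300 mg/kg. Each group had 3 arrays except HBx,src,p53 NOR, which had 2. The fish without OF are labelled as untreated or mock, and no gavage without OF is described for them, so OF, gavage and anesthesia cannot be told apart. The labels do not say whether an array held 1 fish or a pool, and p-values measure only the spread between these arrays, which may be technical. All HBx,src arrays were batch 1 and all HBx,src,p53 arrays batch 2, so that line cannot be told apart from batch. For this reason levels were compared within a line only, and the difference between the lines was tested only for responses. Interquartile ranges over all probe sets were 1.8 to 2.03 in HBx,src and 2.89 to 3.34 in HBx,src,p53 arrays. The batches thus differed in signal scale, so fold changes of the lines may not be on a like scale.

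Before a cell divides, the MCM helicase is loaded onto origins of replication by licensing factors such as Cdc6 and Cdt1, cyclin E with Cdk2 starts the S phase, and polymerases held by the sliding clamp Pcna copy the DNA with deoxynucleotides supplied by Rrm1 and Tyms. Cyclins A and B with Cdk1, the kinases Plk1 and Aurora, and the spindle checkpoint then drive and guard the separation of the chromosomes. Most hepatocytes of an adult liver are quiescent, and such genes are used as markers of proliferation in regenerating and tumorous liver. In oocytes, cyclins and mitotic kinases are stored as maternal transcripts, so ovary and oocyte markers were followed beside them.

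Signals are log2 values, so a difference of 1 is a 2-fold change. The genes lay near the low end of the scale. In HBx,src the array medians averaged 2.14, and 14 of the 34 genes had a mean signal below that, 28 had one under 3, and pcna and rrm1 alone reached 4. In HBx,src,p53 the array medians averaged 2.61, 12 genes lay below, 23 lay under 3, and pcna, rrm1, mcm7 and cdkn3 reached 4. No call of detection was used here, so a low value may hold little specific signal, and fold changes of dim genes can be understated. Hepatocyte markers were the brightest list in every array, with medians of 11.12 to 12.83. DIO+OF replicate 3 of HBx,src,p53 stood apart by a near absence of vitellogenin, with a vtg2 signal of 2.76 against 13.75 to 14.04 in the other arrays. Its signal of the estrogen receptor gene esr1 was 5.89 against 7.84 to 10.82 in the others. HBx,src NOR replicate 2 and HBx,src,p53 DIO replicates 2 and 3 had raised ovary and oocyte markers, and the main values that rest on these arrays are also given without them.

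**Figure D1:**
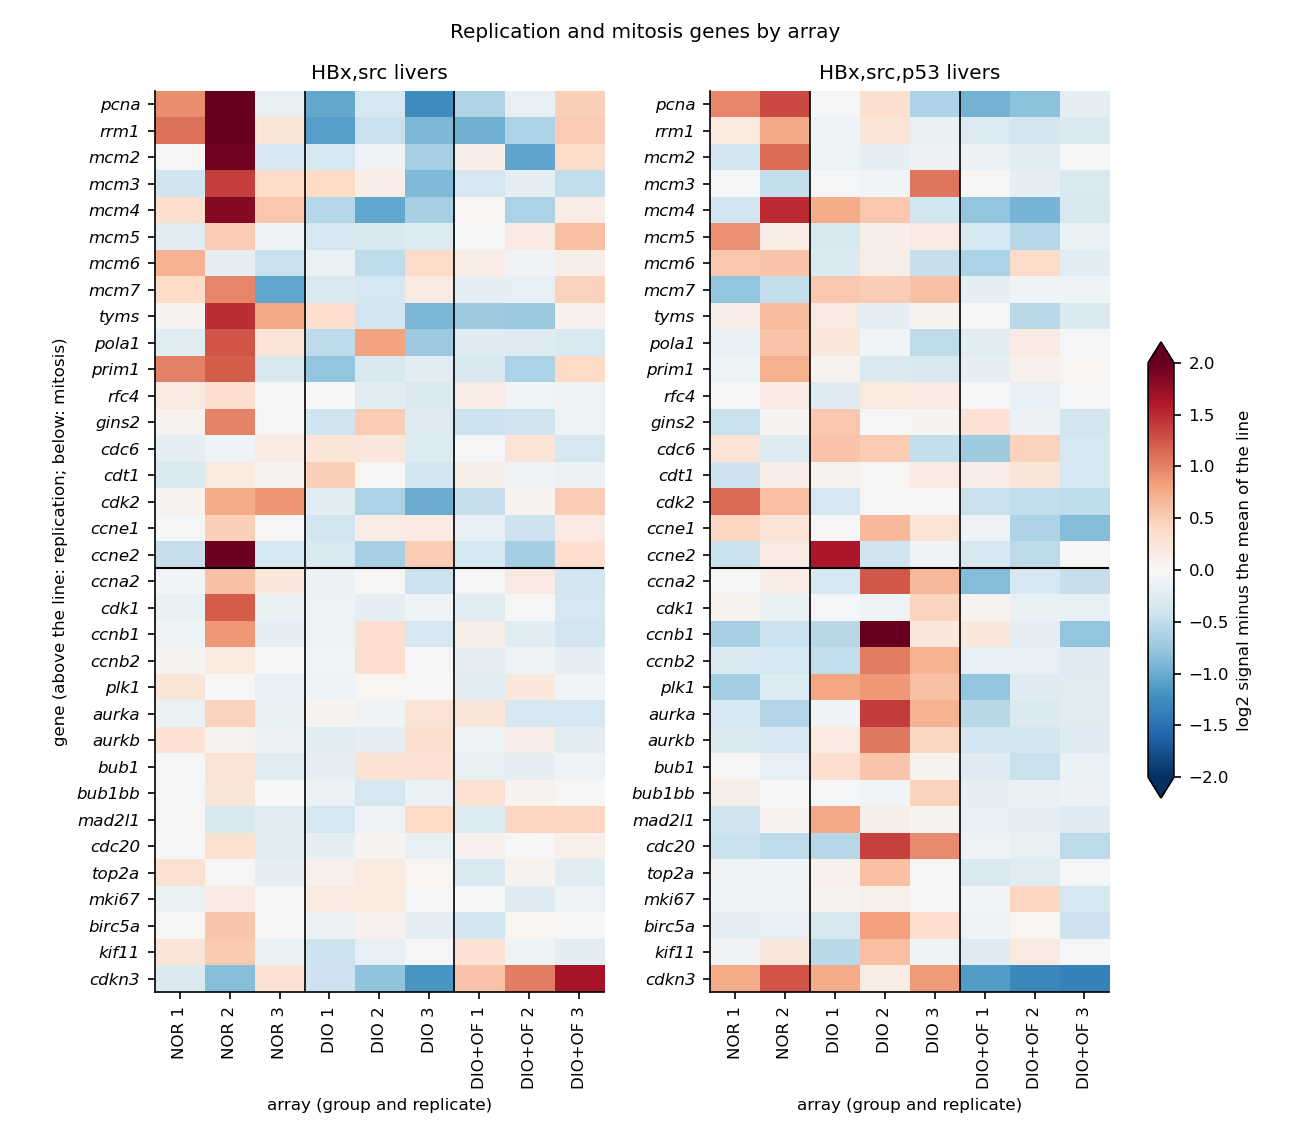
Heat map of the 34 genes (rows, replication above the black line and mitosis below) in each array (columns, grouped by diet and OF), as log2 signal minus the mean of the arrays of that line; colours stop at 2 log2 units in either direction. NOR replicate 2 was the highest NOR array of HBx,src in 15 of 18 replication rows, and DIO replicate 2 the highest DIO array of HBx,src,p53 in 12 of 16 mitosis rows.

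The first comparison asked what overfeeding did to these genes in the livers of HBx,src fish, 3 DIO against 3 NOR arrays. The replication genes had a median log2 fold change of -0.55 on the DIO diet with 16 of 18 below 0 and none called, while the mitosis genes had a median of -0.12 and 10 of 16 below 0. The median over all 20908 genes was -0.02, with 52.1% of them below 0. By limma with Benjamini-Hochberg adjustment over all probe sets, 0 of the 34 genes were called at an adjusted p under 0.05, where 0% of all genes were called. At an unadjusted p under 0.05, 6 genes were lower and 0 higher, against 5.17% and 2.39% of all genes. The same 6 genes, all of replication, passed the threshold of the study's methods, at least 2-fold at an unadjusted p under 0.05, which is 17.6% of the 34 genes where 1.89% of all genes passed in that direction. Without NOR replicate 2 they were 4 genes, pcna, rrm1, mcm4 and cdk2, 11.8% where 3.15% of all genes passed. Since adult liver holds several cell types, fewer dividing cells and less RNA per cell cannot be told apart in these data.

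The lowest fold change was that of a nucleotide gene. The log2 signal of rrm1, the large subunit of ribonucleotide reductase, was 5.35, 6.45 and 4.49 in NOR arrays and 3.15, 3.80 and 3.35 in DIO arrays. Every DIO array lay below every NOR array, and the log2 fold change was -2.00 ± 0.44 (SE, n = 3 and 3 arrays, adjusted p = 0.357, limma), a 3.99-fold lower mean. The dimmer second probe set of rrm1 had a log2 fold change of -0.04 ± 0.16. The signal of pcna was 5.42, 6.59 and 4.34 in NOR and 3.47, 4.15 and 3.24 in DIO arrays, which did not overlap, and its log2 fold change was -1.83 ± 0.48 (adjusted p = 0.505). For tyms, the thymidylate synthase, the NOR arrays had 3.11, 4.51 and 3.82 and the DIO arrays 3.38, 2.65 and 2.13. These arrays overlapped, and the log2 fold change was -1.09 ± 0.37 (adjusted p = 0.655).

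Among the helicase genes mcm4 was the lowest. Its signal was 2.96, 4.45 and 3.16 in NOR and 2.04, 1.57 and 1.96 in DIO arrays, and its log2 fold change was -1.67 ± 0.48 (adjusted p = 0.56). The DIO arrays lay below all NOR arrays, but also below the mean array median of the line. The other subunits mcm2, mcm3, mcm5, mcm6 and mcm7 had log2 fold changes of -0.91, -0.57, -0.37, -0.11 and -0.27, all with NOR replicate 2 among the NOR arrays. Without it they were -0.21, -0.10, -0.15, -0.21 and 0.16, so the subunits did not share a sign. The signal of mcm7 was 4.22, 4.80 and 2.78 in NOR, 3.52, 3.46 and 4.00 in DIO and 3.63, 3.66 and 4.28 in DIO+OF arrays, with NOR replicate 3 the lowest of all. The GINS subunit gins2 had -0.40 (-0.09 without that array), and the licensing genes cdc6 and cdt1 had 0.10 and 0.06. For prim1, the catalytic primase subunit, the signal was 3.42, 3.61 and 2.08 in NOR and 1.61, 2.08 and 2.2 in DIO arrays, and its log2 fold change was -1.07 ± 0.37 (adjusted p = 0.672). Over all alternatives, a dimmer second probe set among them, prim1 ran from -1.55 to -0.26. Its partner pola1, the catalytic subunit of polymerase alpha, had -0.57 ± 0.41 (-0.15 without NOR replicate 2), and the clamp loader subunit rfc4 had -0.34 ± 0.16.

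The S-phase kinase cdk2 had a signal of 2.57, 3.24 and 3.38 in NOR and 2.29, 1.86 and 1.51 in DIO arrays. The groups did not overlap, and the log2 fold change was -1.17 ± 0.28 (adjusted p = 0.435). Its cyclins had smaller differences than their spread, ccne1 with -0.18 ± 0.25 and ccne2 with -0.54 ± 0.62, which became -0.01 and 0.24 without NOR replicate 2. In ccne1 the arrays had 2.1, 2.62 and 2.17 in NOR and 1.77, 2.28 and 2.31 in DIO, an overlap of both groups. Across the replication genes 5 of 18 had every DIO array below every NOR array, 27.8%, against 7.73% of all genes.

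The mitosis genes were close to flat on the DIO diet in this line. Their log2 fold changes ran from -0.50 for cdkn3 to 0.16 for mad2l1, and 0 of 16 passed the methods' threshold. Without NOR replicate 2 cdkn3 had -0.79. The highest values of the whole set were 0.16 for mad2l1 and 0.12 for bub1, both of the spindle checkpoint, 0.12 for the proliferation marker mki67 and 0.10 for cdc6. The mitotic kinase cdk1 had 1.70, 3.07 and 1.71 in NOR and 1.75, 1.65 and 1.77 in DIO arrays. Apart from NOR replicate 2 these values were alike, and the log2 fold change of -0.44 ± 0.30 became 0.02 without that array. The signal of plk1, a kinase of mitotic entry, was 2.41, 2.18 and 2.00 in NOR, 2.09, 2.21 and 2.15 in DIO and 1.96, 2.38 and 2.11 in DIO+OF arrays of this line, an overlap of all groups. That of aurka, an Aurora kinase, was 2.12, 2.72 and 2.1 in NOR, 2.31, 2.18 and 2.51 in DIO and 2.5, 1.92 and 1.92 in DIO+OF arrays. For cdc20, an activator of the anaphase-promoting complex, the arrays had 1.92, 2.21 and 1.70, then 1.71, 1.97 and 1.77, and 2.00, 1.92 and 2.01 in the same order of groups. The groups of both genes overlapped, as did those of the cyclin gene ccna2 with 2.00, 2.63 and 2.26 in NOR, 1.94, 2.08 and 1.62 in DIO and 2.02, 2.23 and 1.67 in DIO+OF arrays.

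NOR replicate 2 of HBx,src was the highest NOR array in 15 of 18 replication and 11 of 16 mitosis genes. The median signal of the replication genes was 2.53, 3.75 and 2.55 in NOR, 2.31, 2.19 and 2.09 in DIO and 2.30, 2.28 and 2.70 in DIO+OF arrays. That array was also the highest NOR array in 16 of 20 ovary and oocyte markers (zp2.1, an egg coat gene, at 4.77 against 1.67 and 1.33), in 12 of 13 exocrine pancreas markers and in 9 of 12 leukocyte markers, whose part in the result was not tested. The summed linear signal of the ovary and oocyte list was 77.3 to 155 in NOR and 83.9 to 95.9 in DIO arrays. Without it the median log2 fold change of the replication genes was -0.18, with rrm1 at -1.49, pcna at -1.26, mcm4 at -1.20, cdk2 at -1.09, prim1 at -0.78 and tyms at -0.74, all with the same sign as before, and 14 of 18 lay below 0. The median of the mitosis genes was then 0.01, with 7 of 16 below 0.

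Other genes of the same pathways, again grouped by function with earlier results known, were measured beside them. Of 39 further replication genes 0 were called and 33 lay below 0, where 52.1% of all genes did. At an unadjusted p under 0.05, 14 of the 39 were lower and 0 higher, against 5.17% and 2.39% of all genes. The median log2 fold change of the 39 genes was -0.36. Without NOR replicate 2 it was -0.21 against -0.01 over all genes, with 27 below 0 and 8 lower at an unadjusted p under 0.05. For that fit the shares of all genes below 0 and lower are not given, so these counts cannot be set against all genes. The smallest p belonged to rpa2, a subunit of the single-strand binding protein, with -1.47 ± 0.40, to tk1, the thymidine kinase of nucleotide salvage, with -1.45 ± 0.42, to the fork protection gene tipin with -1.01 ± 0.29 and to uhrf1, which couples DNA methylation to replication, with -0.75 ± 0.24, and without that array these had -0.89, -1.41, -0.78 and -0.49. Of 51 further mitosis genes 0 were called (0 higher and 4 lower at an unadjusted p under 0.05) and 34 lay below 0, with a median of -0.14, or 27 with a median of -0.02 without NOR replicate 2. Here the condensin gene smc4 had -1.43 ± 0.33 (adjusted p = 0.397), nuf2, a kinetochore gene, -0.83 ± 0.22, the cytokinesis gene racgap1 -0.56 ± 0.16 and the kinetochore motor gene cenpe -0.46 ± 0.20, which became -1.31, -0.77, -0.41 and -0.28. Among 35 cell cycle regulators 0 were called (1 higher and 0 lower at an unadjusted p under 0.05) and the median was -0.08, with the pocket protein gene rbl2 at 0.60 ± 0.24, lin54 at -0.36 ± 0.21, ccnd1, the cyclin D1 gene, at -1.04 ± 0.63 (-0.55 without NOR replicate 2) and ccng2, the cyclin G2 gene, at 0.69 ± 0.47.

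**Figure D2:**
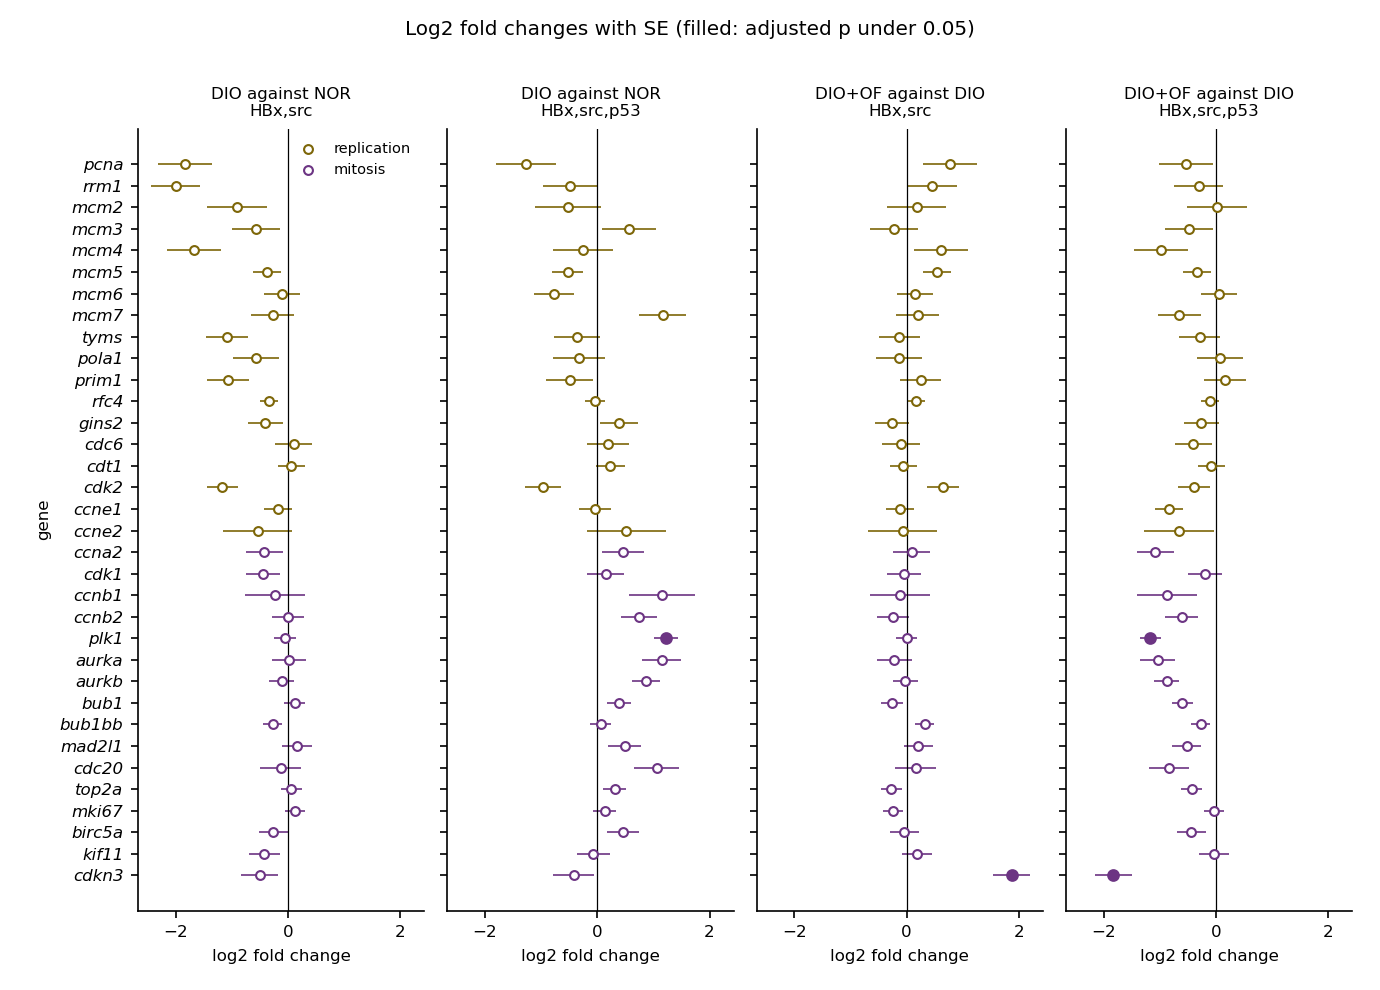
Log2 fold change (horizontal axis) with its standard error for each of the 34 genes in the comparisons of diet and OF, for each line; filled points have an adjusted p under 0.05. The replication genes lay to the left of 0 for the diet in HBx,src (16 of 18), and the mitosis genes lay to the right for the diet (14 of 16) and to the left for OF (16 of 16) in HBx,src,p53. The diet and OF panels of a line share its DIO arrays.

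OF on the DIO diet in HBx,src (3 DIO+OF against 3 DIO arrays) was followed by a rise of 1 of the 34 genes. This was cdkn3, the gene of a phosphatase that removes the activating phosphate of cyclin-dependent kinases and is known in mammals as a gene of the G1 to S transition and of mitosis. Of all genes 0.488% were called higher and 0.244% lower, and 1 of 34 genes is 2.94%. The signal of cdkn3 was 3.55, 3.16 and 2.79 in DIO arrays and 4.53, 4.98 and 5.60 in DIO+OF arrays, and 3.67, 3.10 and 4.25 in NOR arrays. Every DIO+OF array lay above every array of the other groups of the line, and cdkn3 rose by 1.87 ± 0.33 on the log2 scale over DIO (3.65-fold, adjusted p = 0.0318). The call was lost, with the fold change between 1.59 and 1.89, in 5 of 17 fits that left out 1 array (DIO replicates 2 or 3, DIO+OF replicates 2 or 3, or DIO+OF replicate 2 of the other line, adjusted p of 0.0531 to 0.133), and when the line was fitted by itself (adjusted p = 0.154).

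The other 33 genes were not called, and their log2 fold changes lay between -0.27 and 0.77. The highest after cdkn3 were pcna with 0.77 ± 0.48, cdk2 with 0.65 ± 0.28 and mcm4 with 0.61 ± 0.48. The signal in the DIO+OF arrays was 3.88, 4.32 and 4.97 for pcna, 2.03, 2.56 and 3.01 for cdk2 and 2.65, 1.99 and 2.77 for mcm4, each overlapping the DIO values given above. At an unadjusted p under 0.05 cdk2 and the helicase gene mcm5 (0.55 ± 0.25) were higher besides cdkn3, 8.82% of the set where 9.92% of all genes were. The lowest were top2a, which untangles DNA, with -0.27, gins2 with -0.26, bub1 with -0.26 and ccnb2, a B-type cyclin, and mki67 with -0.24 each. The median was 0.16 for the replication genes, -0.01 for all genes and -0.03 for the mitosis genes, where it was 0.02 with centred arrays and 0.03 after quantile normalization. In these arrays all 13 exocrine pancreas markers had log2 fold changes below 0 (median -1.19), and 10 of 12 leukocyte markers lay above 0 (median 0.39), none of them called, and their part was not tested.

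In the replication genes DIO+OF replicate 3 was the highest array of its group in 12 of 18. Its rrm1 signal was 4.76 against 3.27 and 3.62 in the other DIO+OF arrays, its tyms signal 3.13 against 2.33 and 2.30, and its prim1 signal 2.80 against 2.08 and 1.77. The spread within the group was thus as large as the difference from DIO for these genes. The cyclin gene ccne1 and the kinase gene cdk1 were not called. The signal of ccne1 was 1.97, 1.73 and 2.30 and that of cdk1 1.64, 1.86 and 1.52 in DIO+OF arrays, with log2 fold changes of -0.12 ± 0.25 and -0.05 ± 0.30.

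Among the further genes 1 was called for OF in HBx,src, where 0.488% of all genes were called higher and 0.244% lower. This was cdkn1ba, which encodes an inhibitor of cyclin-dependent kinases of the p27 type. Its signal was 6.37, 6.15 and 5.50 in DIO and 7.73, 7.33 and 7.97 in DIO+OF arrays, and it rose by 1.67 ± 0.33 (adjusted p = 0.0462), a call kept in 9 of 27 alternatives. It was the only call among 35 cell cycle regulators, which had a median of 0.03. Below the threshold stayed lin54 with 1.01 ± 0.21 (adjusted p = 0.0546), cdkn1d with -1.80 ± 0.51 and ccng2 with -1.37 ± 0.47. Of 51 further mitosis genes 0 were called (3 higher and 0 lower at an unadjusted p under 0.05), with the checkpoint gene bub3 at 0.95 ± 0.21 (adjusted p = 0.0641), the centrosome kinase gene nek2 at 1.68 ± 0.42, the spindle motor gene kif23 at 0.80 ± 0.30 and the centromere histone gene cenpa at -0.53 ± 0.25. At that threshold 9.92% of all genes were higher and 6.04% lower. Of 39 further replication genes 0 were called (0 higher and 1 lower at an unadjusted p under 0.05), with gmnn, an inhibitor of licensing, at -0.88 ± 0.41, orc1 at 0.56 ± 0.26, tipin at 0.61 ± 0.29 and rfc3 at -0.78 ± 0.38.

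In HBx,src,p53 livers the diet comparison (3 DIO against 2 NOR arrays) had 1 called mitosis gene of 16, plk1, higher on the DIO diet. The median log2 fold change of the mitosis genes was 0.46, with 14 of 16 above 0 (49.3% of all genes were), and 0.01 with 8 of 16 above 0 without DIO replicates 2 and 3, while the replication genes had a median of -0.28 with 12 of 18 below 0, and all genes had -0.01. Of the 34 genes plk1 alone was called, higher, which is 2.94% where 1.21% of all genes were called higher and 1.80% lower (252 and 376 genes, or 223 and 103 after quantile normalization). The methods' threshold was passed by 4 genes upwards, plk1, aurka, cdc20 and mcm7, which is 11.8% where 3.19% of all genes passed, and by pcna downwards, where 6.59% did. In 7 of 16 mitosis genes every DIO array lay above every NOR array, 43.8% against 16.4% of all genes.

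The polo-like kinase gene plk1, whose product drives entry into mitosis and the assembly of the spindle, had a signal of 2.19 and 2.61 in NOR and 3.66, 3.74 and 3.47 in DIO arrays. The groups were far apart, and plk1 rose by 1.22 ± 0.21 (2.33-fold, n = 2 and 3 arrays, adjusted p = 0.0104). The second probe set of plk1, with a mean signal of 1.74 against 2.5, had 0.16 ± 0.23 (adjusted p = 0.811). The call was lost without NOR replicate 1 (1.01, adjusted p = 0.102), which leaves 1 NOR array assumed to vary like the other groups, after quantile normalization (0.95, adjusted p = 0.0608), when the line was fitted by itself (adjusted p = 0.0564) and with the mean of both probe sets (0.69, adjusted p = 0.0851).

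The Aurora kinases and their partners followed with wider spread. The signal of aurka, the kinase of the centrosome and spindle poles, was 2.78 and 2.55 in NOR and 3.07, 4.54 and 3.83 in DIO arrays, and its log2 fold change was 1.15 ± 0.35 (adjusted p = 0.0947, with 0.23 to 1.52 over all alternatives, a second probe set among them). That of aurkb, the kinase of the chromosomal passenger complex, had 0.86 ± 0.25 (adjusted p = 0.0855), and birc5a of the same complex 0.46 ± 0.29. For cdc20, the activator of the anaphase-promoting complex, the arrays had 1.86 and 1.80 in NOR and 1.73, 3.67 and 3.26 in DIO. Here DIO replicate 1 was as low as the NOR arrays, and the log2 fold change was 1.06 ± 0.40 (adjusted p = 0.191). The same pattern held for ccnb1, the cyclin B1 gene, with 1.6 and 1.83 in NOR and 1.71, 4.43 and 2.47 in DIO arrays and a log2 fold change of 1.15 ± 0.59 (adjusted p = 0.365). For ccna2, the cyclin A2 gene, the NOR arrays had 2.99 and 3.16 and the DIO arrays 2.66, 4.26 and 3.68 (0.46 ± 0.37).

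The kinase cdk1 did not follow its cyclins, with 1.82 and 1.61 in NOR and 1.73, 1.66 and 2.2 in DIO arrays (0.15 ± 0.33), all under the mean array median. Of the spindle checkpoint, mad2l1 had 0.49 ± 0.29, bub1 0.39 ± 0.21 and bub1bb 0.06 ± 0.19. The spindle motor kif11 had -0.07 ± 0.30, top2a 0.31 ± 0.21 and mki67 0.13 ± 0.20. For cdkn3 the NOR arrays had 5.98 and 6.49 and the DIO arrays 5.97, 5.39 and 6.08, with a log2 fold change of -0.42 ± 0.37, the lowest among the mitosis genes.

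The replication genes of HBx,src,p53 had fold changes of both signs. The clamp gene pcna had 5.68 and 6.02 in NOR and 4.65, 5.01 and 4.08 in DIO arrays, without overlap, and a log2 fold change of -1.27 ± 0.53 (adjusted p = 0.245). The kinase gene cdk2 had 4.63 and 4.10 in NOR and 3.17, 3.51 and 3.53 in DIO arrays, also without overlap (-0.96 ± 0.32, adjusted p = 0.129). In contrast mcm7 had 4.37 and 4.68 in NOR and 5.70, 5.65 and 5.75 in DIO arrays, and its log2 fold change of 1.17 ± 0.42 (adjusted p = 0.168) stood against -0.77 for mcm6, -0.53 for mcm5, -0.52 for mcm2 and -0.25 for mcm4, and 0.57 for mcm3. The signal of mcm4 was 2.71 and 4.58 in NOR and 3.84, 3.64 and 2.73 in DIO arrays, and with the NOR arrays this far apart its fold change was -1.18 without NOR replicate 1 and 0.69 without NOR replicate 2, and that of mcm2 was -1.26 and 0.22. For prim1 the arrays had 2.53 and 3.35 in NOR, 2.71, 2.35 and 2.31 in DIO and 2.46, 2.72 and 2.67 in DIO+OF, and for tyms 2.96 and 3.47 in NOR and 3.01, 2.66 and 2.89 in DIO. Both genes overlapped between NOR and DIO, with log2 fold changes of -0.49 ± 0.42 for prim1 and -0.36 ± 0.41 for tyms. The signal of rrm1 was 4.90 and 5.45 in NOR and 4.59, 4.95 and 4.55 in DIO arrays (-0.48 ± 0.49), and that of ccne1 was 3.28 and 3.10 in NOR and 2.84, 3.50 and 3.11 in DIO arrays (-0.04 ± 0.28).

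**Figure D3:**
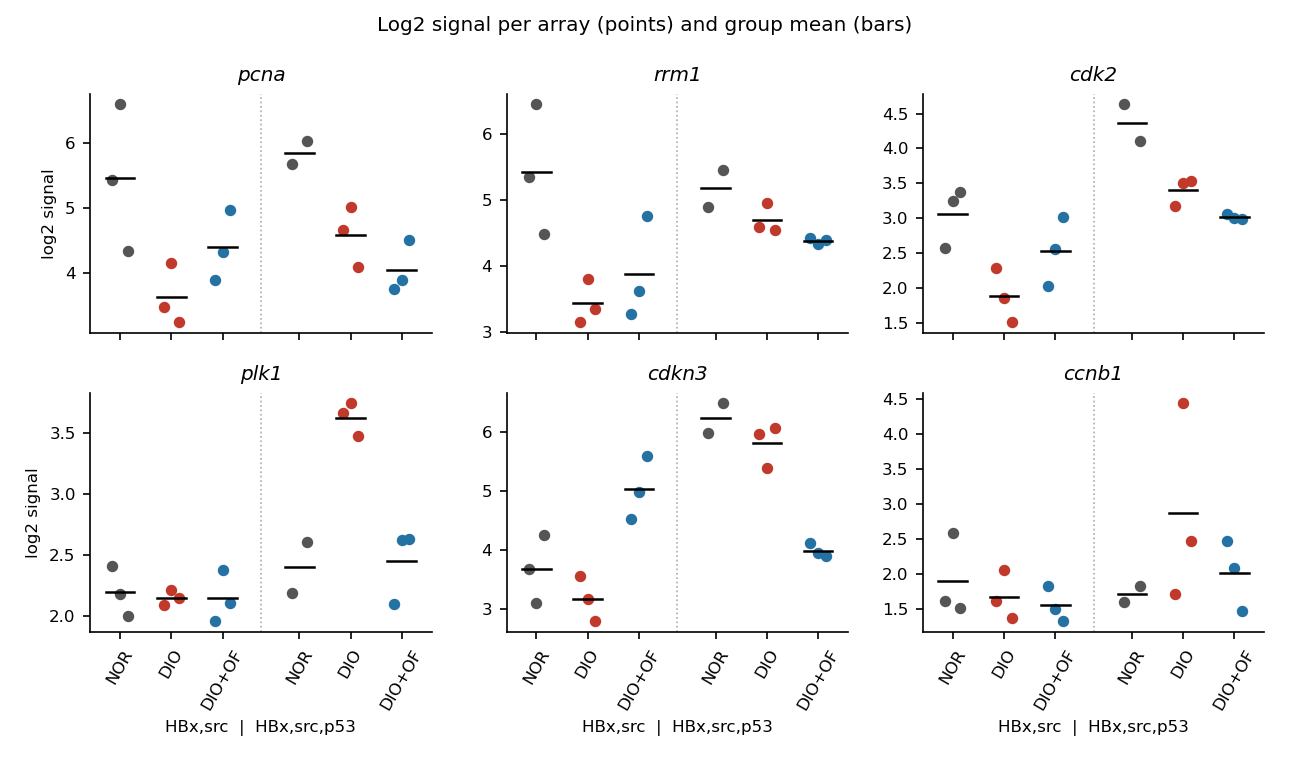
Log2 signal (vertical axis, with a scale of its own in each panel) of 6 genes in every array (points) with the group mean (bar), HBx,src to the left and HBx,src,p53 to the right of the dotted line. In HBx,src,p53 all 3 DIO arrays of plk1 lay at 3.47 to 3.74 while those of ccnb1 ran from 1.71 to 4.43, and cdkn3 was higher in DIO+OF than in DIO arrays of HBx,src and lower in those of HBx,src,p53.

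Ovary and oocyte markers were raised in the same DIO arrays. Their median signal was 2.27 and 2.21 in NOR, 2.21, 3.73 and 2.82 in DIO and 2.03, 2.22 and 1.86 in DIO+OF arrays of HBx,src,p53. The median of the mitosis genes was 2.2 and 2.5 in NOR, 2.56, 3.46 and 2.91 in DIO and 2.17, 2.46 and 2.36 in DIO+OF arrays, so DIO replicates 2 and 3 ranked first and second on both lists. The summed linear signal of the 20 markers was 108 to 167 in NOR, 125 to 474 in DIO and 81.7 to 105 in DIO+OF arrays, and 19 of 20 had a log2 fold change above 0 for the diet, with a median of 0.73. The egg coat gene zp2.5 had 1.76 and 2.25 in NOR and 3.25, 6.78 and 5.24 in DIO arrays, whereas figla stayed between 1.12 and 1.83 in those 5 arrays. All 13 exocrine pancreas markers had fold changes above 0 as well, with a median of 1.24 and none of them called, 7 of 8 red blood cell markers lay below 0 (median -0.90, none called), and 1 ovary and oocyte marker was called higher and 1 hepatocyte marker lower. What part these cells had was not tested. DIO replicate 1 had an ovary and oocyte median of 2.21, as in NOR, but single markers lay on both sides of the NOR arrays. There bmp15 was at 3.52 (2.38 and 2.45 in NOR), nobox at 3.63 (2.7 and 2.76) and zp2.5 at 3.25. In contrast zar1 was at 3.01 (3.74 and 3.24 in NOR) and zp3c at 1.97 (2.26 and 2.11). In that array plk1 was at 3.66, mcm7 at 5.70 and aurka at 3.07, while cdc20 (1.73), ccnb1 (1.71) and ccna2 (2.66) were not above their NOR arrays. With that array as the only DIO array, which was tried after the values were known and leaves no spread within the group, so that the lone array is assumed to vary like the other groups, the fold change was 1.26 for plk1, 1.18 for mcm7, 0.40 for aurka and -0.09 for cdc20. Without that array 4 genes were called, ccnb2, plk1, aurka and cdc20, where 174 of all 20908 genes were called higher and 140 lower. Without HBx,src NOR replicate 3, which enters only the common estimate of spread, mcm7 was called beside plk1 (adjusted p = 0.0311). In that fit 199 of all genes were called higher and 320 lower. With the line fitted by itself mcm7 was called (adjusted p = 0.0316) and plk1 was not (adjusted p = 0.0564).

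**Figure D4:**
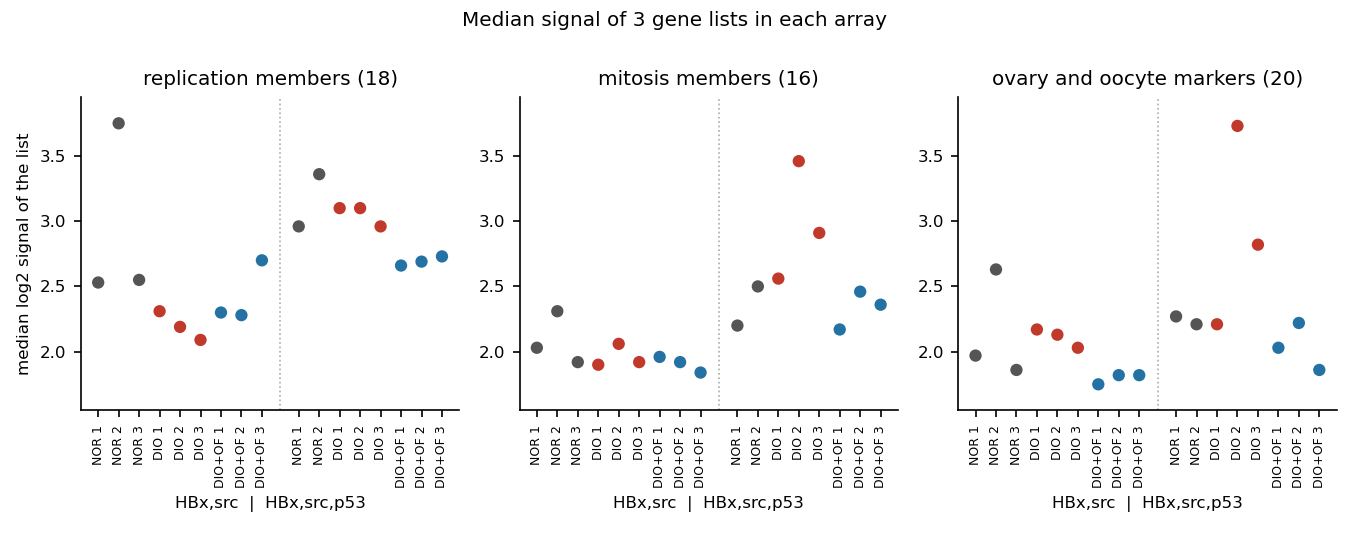
Median log2 signal (vertical axis) of the 18 replication genes, the 16 mitosis genes and 20 ovary and oocyte markers in each array (horizontal axis; grey NOR, red DIO, blue DIO+OF). HBx,src,p53 DIO replicates 2 and 3 were the highest arrays for mitosis genes (3.46 and 2.91) and for the markers (3.73 and 2.82), and HBx,src NOR replicate 2 was the highest for replication genes (3.75).

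Of the further genes, the diet changed 3 in HBx,src,p53. The fork protection gene tipin had 5.59 and 5.31 in NOR and 3.45, 3.31 and 3.79 in DIO arrays and fell by 1.93 ± 0.33 (adjusted p = 0.009, kept in 26 of 27 alternatives). The origin recognition gene orc3 had 5.01 and 5.37 in NOR and 4.12, 3.96 and 4.00 in DIO arrays and fell by 1.16 ± 0.20 (adjusted p = 0.00946, kept in 23 of 27). The centromere histone gene cenpa had 4.36 and 4.57 in NOR and 6.22, 5.80 and 5.32 in DIO arrays and rose by 1.32 ± 0.28 (adjusted p = 0.0257, kept in 23 of 28). These were 2 of 39 further replication genes, with a median of -0.10, and 1 of 51 further mitosis genes, with a median of 0.19 and 39 above 0. Among 35 cell cycle regulators, with a median of -0.12, 0 were called (2 higher and 7 lower at an unadjusted p under 0.05, where 7.52% and 11.5% of all genes were), and the smallest p belonged to ccng2 with 1.86 ± 0.53 (adjusted p = 0.0797), cdkn1bb with 1.64 ± 0.48, cdkn1ba with -1.15 ± 0.37 and rbl2 with -0.74 ± 0.27.

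OF on the DIO diet in HBx,src,p53 (3 DIO+OF against 3 DIO arrays) was followed by a fall of 2 genes, cdkn3 and plk1, which is 5.88% of the 34 where 0.641% of all genes were called lower and 1.71% higher. All 16 mitosis genes had log2 fold changes below 0, from -1.83 to -0.03 with a median of -0.60, and 14 of 18 replication genes did, with a median of -0.33, against a median of 0.04 and 46.1% below 0 over all genes. This comparison shares the DIO arrays with the diet comparison, so a high DIO array raises the diet fold change and lowers the OF fold change. At the methods' threshold 4 genes, cdkn3, plk1, ccna2 and aurka, were lower, 11.8% of the set against 2.47% of all genes. Every DIO+OF array lay below every DIO array in 12 of 34 genes, 35.3% against 9.19% of all genes.

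The signal of cdkn3 in the DIO+OF arrays was 4.12, 3.95 and 3.89, below every NOR and DIO array of the line. It fell by 1.83 ± 0.33 on the log2 scale from DIO (3.54-fold, adjusted p = 0.0158), and by 2.24 ± 0.37 from NOR (4.74-fold, adjusted p = 0.00633). The call against NOR was lost without NOR replicate 2 (-1.99, adjusted p = 0.0704). Leaving out 1 of DIO replicate 3, DIO+OF replicate 2 or DIO+OF replicate 3, the array with a vtg2 signal of 2.76, took the adjusted p against DIO to 0.0522 to 0.0641, with fold changes of -1.69 to -1.81. With DIO replicate 1 as the only DIO array, assumed to vary like the other groups, it had -1.98 (adjusted p = 0.0582).

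The signal of plk1 in the DIO+OF arrays was 2.1, 2.62 and 2.63, within reach of the NOR arrays at 2.19 and 2.61. It fell by 1.17 ± 0.19 from DIO (2.26-fold, adjusted p = 0.00876) and had 0.05 ± 0.21 against NOR. The second probe set had -0.05 ± 0.20 against DIO (adjusted p = 0.946). The call against DIO was lost after quantile normalization (-0.89, adjusted p = 0.0548), when the line was fitted by itself (adjusted p = 0.0798), with the mean of both probe sets (-0.61, adjusted p = 0.118) and with DIO replicate 1 as the only DIO array (-1.21, adjusted p = 0.0531), and it was kept in all 17 fits that left out 1 array.

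The cyclin and Aurora genes had fold changes below 0 and were not called. The signal of ccna2 was 2.15, 2.67 and 2.55 in DIO+OF arrays (-1.08 ± 0.33, adjusted p = 0.129), and that of aurka was 2.58, 2.85 and 2.90 (-1.04 ± 0.31, adjusted p = 0.121). They had -0.21 and -0.29 when DIO replicate 1 stood alone for DIO. Over all alternatives, a dimmer second probe set of each among them, ccna2 ran from -1.52 to -0.02 and aurka from -1.41 to -0.29. The signal of cdc20 was 2.2, 2.16 and 1.78 (-0.84 ± 0.36), and aurkb had -0.88 ± 0.22 (adjusted p = 0.0693), bub1 -0.60 ± 0.19 (adjusted p = 0.142) and top2a -0.43 ± 0.19. With cdkn3, plk1 and ccna2 these were the 8 mitosis genes lower at an unadjusted p under 0.05, where 7.11% of all genes were. The kinase cdk1, with 1.82, 1.6 and 1.6 in DIO+OF arrays, had -0.19 ± 0.30.

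Of the replication genes ccne1 alone had an unadjusted p under 0.05. Its signal was 2.74, 2.23 and 1.98 in DIO+OF arrays, all below the DIO arrays, and its log2 fold change was -0.84 ± 0.25 (adjusted p = 0.125). Over all alternatives, a dimmer second probe set among them, ccne1 ran from -1.05 to -0.07. The helicase gene mcm4 had 2.31, 2.17 and 2.77 (-0.98 ± 0.48), and mcm7 had 4.99, 5.09 and 5.08, below its DIO and above its NOR arrays (-0.65 ± 0.38). For pcna the DIO+OF arrays had 3.75, 3.88 and 4.50 (-0.53 ± 0.48), for cdk2 3.06, 3.00 and 2.99 (-0.39 ± 0.28), for rrm1 4.42, 4.33 and 4.39 (-0.31 ± 0.44) and for tyms 2.85, 2.29 and 2.54 (-0.29 ± 0.37). The highest log2 fold changes were 0.16 for prim1, 0.08 for pola1, 0.06 for mcm6 and 0.02 for mcm2.

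Ovary and oocyte markers had log2 fold changes below 0 in 19 of 20 genes, with a median of -0.89 and 2 of them called, and 12 of 13 exocrine pancreas markers lay below 0 with a median of -0.93 and none called. Above 0 lay 10 of 11 hepatocyte markers (median 0.42, 1 called), 7 of 8 red blood cell markers (0.60, none called), 8 of 8 biliary markers (0.28, none called), 4 of 8 endothelial markers (0.51, 2 called higher) and 6 of 12 leukocyte markers (0.18, none called). The summed linear signal of the leukocyte markers was 677, 709 and 1020 in DIO and 1960, 1780 and 1250 in DIO+OF arrays, without overlap. With DIO replicate 1 as the only DIO array the median of the mitosis genes was -0.16 and that of the replication genes -0.23, against 0.08 over all genes. Without DIO replicate 1, in turn, 7 genes were called, ccna2, ccnb2, plk1, aurka, aurkb, cdc20 and cdkn3, where 164 of all 20908 genes were called lower and 176 higher. Without DIO+OF replicate 3 plk1 alone was called (-1.26, adjusted p = 0.0212), where 38 of all genes were called lower and 108 higher, and the median of the mitosis genes was -0.59. What part other cells had in these differences was not tested. Of the further genes 0 of 39 replication genes, 0 of 51 mitosis genes and 0 of 35 regulators were called, with medians of -0.18, -0.20 and 0.05, and 3, 0 and 1 of them were higher and 7, 7 and 0 lower at an unadjusted p under 0.05, where 12.2% and 7.11% of all genes were. The smallest p belonged to kif23 with -1.03 ± 0.30 (adjusted p = 0.113), cenpa with -0.79 ± 0.25, tacc3, a spindle gene, with -0.61 ± 0.24 and nek2 with -1.03 ± 0.42 among the mitosis genes. Among the replication genes it belonged to mcm10 with 0.56 ± 0.21, pole2 with -0.68 ± 0.26, fen1, the flap endonuclease, with -1.13 ± 0.43 and orc4 with -0.64 ± 0.26, and among the regulators to the antiproliferative gene btg2 with 2.30 ± 0.82.

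Against NOR, the DIO+OF livers of HBx,src had 0 called genes of 34, where 0.110% of all genes were called higher and 0.0813% lower. At an unadjusted p under 0.05 1 gene was higher and 6 were lower, against 5.62% and 4.92% of all genes. The median log2 fold change of the replication genes was -0.64 and that of the mitosis genes -0.17, against -0.02 over all genes, and the lowest were rrm1 with -1.54 ± 0.44 (adjusted p = 0.28), tyms with -1.22 ± 0.37, mcm4 with -1.06 ± 0.48 and pcna with -1.06 ± 0.48. Without NOR replicate 2 these became -1.04, -0.88, -0.59 and -0.49, and the median of the replication genes -0.21 against -0.02 over all genes. In that fit 1 gene of the 34 was higher and 2 lower at an unadjusted p under 0.05. The shares of all genes are not given for it, so these counts cannot be set against all genes. The highest were cdkn3 with 1.37 ± 0.33 (adjusted p = 0.187), mad2l1 with 0.37, mcm5 with 0.18 and mcm6 and bub1bb with 0.05 each. Among the further genes cdkn1ba rose by 2.05 ± 0.33 (adjusted p = 0.0427), from 5.40, 5.63 and 5.83 in the NOR arrays, the only call in the 3 lists, kept in 12 of 27 alternatives and lost without NOR replicate 2 (2.06, adjusted p = 0.173), with pole (-0.90 ± 0.23) and nuf2 (-0.89 ± 0.22) the nearest of the replication and mitosis lists.

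In HBx,src,p53 the DIO+OF livers had 2 genes below NOR, 5.88% where 2.90% of all genes were called lower and 3.40% higher. These were cdkn3, given above, and cdk2, which fell by 1.35 ± 0.32 (2.55-fold, adjusted p = 0.0319), its 3 DIO+OF arrays at 2.99 to 3.06 against 4.63 and 4.10. The call of cdk2 was lost without either NOR array (-1.08 and -1.62, adjusted p = 0.236 and 0.0826), without any 1 of the DIO+OF arrays (adjusted p of 0.0607 to 0.0847) and after quantile normalization (-0.98, adjusted p = 0.25). Next were pcna with -1.80 ± 0.53 (adjusted p = 0.0842) and mcm4 with -1.23 ± 0.53, which ran from -2.16 without NOR replicate 1 to -0.30 without NOR replicate 2. The highest were mcm7 with 0.53, ccnb1 with 0.29, cdc20 with 0.22 and cdt1 with 0.14. The replication genes had a median of -0.41, with 14 of 18 below 0, against 0.03 over all genes. The mitosis genes had a median of -0.03, or 0.01 with centred arrays.

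Of the further replication genes 4 of 39 fell in DIO+OF against NOR in this line, orc3 by 1.34 ± 0.20 (adjusted p = 0.00384), tipin by 1.83 ± 0.33 (adjusted p = 0.00923), chaf1a, the large subunit of the chromatin assembly factor, by 1.17 ± 0.28 (adjusted p = 0.0355) and uhrf1 by 1.04 ± 0.26 (adjusted p = 0.045). Of all genes 2.90% were called lower and 3.40% higher in this comparison. The calls of orc3 and tipin were kept in 26 and 25 of 27 alternatives, that of chaf1a in 18 of 27 and that of uhrf1 in 7 of 28. Of the mitosis list 0 of 51 were called (0 higher and 1 lower at an unadjusted p under 0.05, where 11.4% and 10.7% of all genes were), with the motor gene kif15 nearest (-1.32 ± 0.38, adjusted p = 0.0733). Of the regulators ccng2, the cyclin G2 gene, rose by 2.27 ± 0.53 (adjusted p = 0.0314), from 5.32 and 4.73 in NOR to 6.56, 7.65 and 7.68 in DIO+OF arrays, but its second probe set had -1.82 (adjusted p = 0.124).

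The responses of the lines were compared by the interaction term, HBx,src,p53 minus HBx,src. These responses were measured on the different signal scales of the batches. For OF, cdkn3 was the only called gene of the 34, with a difference of -3.69 ± 0.47 on the log2 scale (adjusted p = 0.00857), where 0.655% of all genes were called lower and 0.641% higher (137 and 134 genes, or 176 and 103 after quantile normalization). The call was kept in 25 of 26 alternatives, over which the adjusted p ran from 0.00186 to 0.0507. Next were mcm4 with -1.59 ± 0.68, pcna with -1.30 ± 0.67, and plk1 and ccna2 with -1.17 each (adjusted p = 0.065 for plk1), and the highest were mki67 and pola1 with 0.21 each, gins2 with 0.00 and cdt1 with -0.02. The median difference was -0.29 for replication and -0.66 for mitosis genes, against 0.03 for all genes, and with DIO replicate 1 of HBx,src,p53 as its only DIO array the latter was -0.04.

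For the diet 0 of the 34 genes differed between the lines, where 0.0191% of all genes were called higher and 0.0430% lower, and 6 were higher and 0 lower at an unadjusted p under 0.05, against 4.87% and 5.58% of all genes. The largest differences were rrm1 with 1.51 ± 0.65 (adjusted p = 0.445), mcm7 with 1.45 ± 0.57, mcm4 with 1.42 ± 0.72 and ccnb1 with 1.38 ± 0.80, and plk1 had 1.27 ± 0.29 (adjusted p = 0.119). The lowest were mcm6 with -0.66, mcm5 with -0.16, mki67 with 0.02 and cdkn3 with 0.08. The median difference was 0.48 for replication and 0.65 for mitosis genes, the latter with 16 of 16 above 0 (50.4% of all genes were) and at 0.20 with DIO replicate 1 as the only DIO array of HBx,src,p53. Without HBx,src NOR replicate 2 these medians were 0.17 and 0.46, and rrm1 and mcm7 had differences of 1.00 and 1.01. The rise of plk1 on the diet in HBx,src,p53 is therefore not shown to differ from its log2 fold change of -0.05 ± 0.19 in HBx,src. Among the 39, 51 and 35 further genes 0 differed for either response (1, 8 and 1 higher and 1, 0 and 2 lower at an unadjusted p under 0.05 for the diet, and 2, 0 and 3 higher and 3, 5 and 2 lower for OF, where 10.1% and 8.10% of all genes were), with nek2 at -2.71 ± 0.59 and bub3 at -1.34 ± 0.29 (adjusted p = 0.0531 each) nearest for OF.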

How the data were processed

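Total RNA of liver was labelled with biotin and hybridised to ZebGene 1.1 ST arrays, read in 1 colour. Each array holds 1 deposited value for every probe set, on the log2 scale as judged from the values themselves. Transcriptome Analysis Console is named in the submitters' processing notes, while no source read here gives the summarisation, the normalization or the build. Of 75212 probe sets 30358 had 1 gene symbol, 1015 several, and 43839 were not listed. Gene identifiers matched for 32 of the 34 members, and those of top2a and mki67 rest on the symbol alone. The members and lists were chosen with earlier results of these data known.

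Group means were estimated from the 17 arrays together with limma 3.58.1 under R 4.3.3. Variances were moderated by empirical Bayes as in the study's methods (11 residual and 2.67 prior degrees of freedom), and p-values were adjusted by Benjamini-Hochberg over all probe sets. Errors are SE of this fit. It was tested on simulated data with independent normal noise and no batch difference in signal scale. That test therefore cannot show how the fit performs on these arrays. Values in every array are given for members called in any comparison within a line or past the methods' threshold, and for pcna, cdk1, cdk2 and ccne1; in each comparison the 4 highest and 4 lowest members are named, and from the other lists called genes or those of smallest p. Figures and counts used Python 3.11.15, pandas 2.3.3 and matplotlib 3.10.9. The number of arrays limits the precision.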

Additional observations from a re-analysis of the deposited data

Results flagged for a closer look

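The response of cdkn3 to OF differed between the lines by -3.69 ± 0.47 on the log2 scale, by the test of the difference itself (adjusted p = 0.00857, limma). Its log2 fold change was 1.87 in HBx,src and -1.83 in HBx,src,p53. In both lines every DIO+OF array lay outside the range of the DIO and NOR arrays, above it in 3 of 3 HBx,src arrays and below it in 3 of 3 HBx,src,p53 arrays. The gene had 1 probe set, and line and batch cannot be told apart.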

How the results depend on the processing

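Of the counts and medians over the 34 genes, 600 values under alternatives were counted as near the reported ones and 66 as moved. Of the values of single genes 1763 were counted as unchanged, 114 lost the call, 14 gained it and 2 were counted as reversed. Values without a call that crossed 0 could be counted as unchanged. Among them was cdk1 for the diet in HBx,src, from -0.67 to 0.02 with 1 array left out. The reversed values were those of ccng2 for DIO+OF against NOR in HBx,src,p53, with -1.82 by its second probe set and -0.15 by the mean of its probe sets. Second probe sets existed for 17 of the 34 genes, and with them 0 of these were called in any comparison. Of the called genes plk1 alone was covered, since cdkn3 and cdk2 had 1 probe set each and could not be retested. Of 6449 genes with a second probe set, 43 were called higher and 104 lower for the diet in HBx,src,p53. For OF there these were 67 and 39, and for DIO+OF against NOR 123 and 214. A second probe set was lacking for pcna, mcm4, cdk2 and tyms, among other replication genes. Over those that had one, the median of the replication genes was -0.04 (diet) and -0.12 (OF) in HBx,src and -0.05 and -0.08 in HBx,src,p53. It was -0.10 and 0.02 for DIO+OF against NOR, and -0.05 for the difference of the diet responses, where the mitosis genes had 0.36 (-0.28 for OF).

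Calls for OF in HBx,src went from 1 to 0 with the line alone, the replicate block, or without HBx,src,p53 DIO replicates 2 and 3. Diet calls in HBx,src,p53 went to 0 with quantile normalization. For OF in HBx,src,p53 they went from 2 to 1 with the line alone, quantile normalization, the replicate block or the mean of the probe sets, and to 0 without both DIO arrays. For DIO+OF against NOR in HBx,src,p53 they went from 2 to 1 with quantile normalization, the replicate block or without both arrays. For the difference of the OF responses they were 2 with only probe sets of 1 symbol and 0 with the replicate block. The causes were not tested.

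The replication median for OF in HBx,src,p53 was -0.24 after quantile normalization, -0.26 with centred arrays and -0.23 without both DIO arrays, and its diet value was -0.05 with the mean of the probe sets. The mitosis median for OF in HBx,src was 0.05 without the dimmest 40% of probe sets. Without both DIO arrays, an alternative added after seeing the data, it was 0.01 for the diet and -0.16 for OF in HBx,src,p53, and 0.20 and -0.04 for the differences, the last being -0.40 with the mean of the probe sets.

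Leaving out 1 array gave 0 to 1 calls for OF in HBx,src, 0 to 4 for the diet and 1 to 7 for OF in HBx,src,p53, 0 to 3 for DIO+OF against NOR there, and 0 to 1 and 1 to 2 for the differences in the diet and OF responses. Over all genes the same fits called, in that order, 13 to 1048, 123 to 868, 146 to 530, 235 to 1608, 2 to 53 and 20 to 896. Medians ran from -0.11 to 0.03 (mitosis, OF, HBx,src), -0.40 to -0.01 (replication, diet, HBx,src,p53), -0.36 to -0.24 (replication, OF, HBx,src,p53), -0.67 to -0.21 (replication, DIO+OF against NOR, HBx,src,p53), 0.17 to 0.82 (replication, diet difference) and -0.76 to -0.35 (mitosis, OF difference). The replication median for the diet in HBx,src ran from -0.89 to -0.18, and all 17 fits were still counted as near the reported -0.55. In HBx,src,p53 the mitosis median ran from 0.26 to 0.58 for the diet and from -0.90 to -0.41 for OF. Over all genes, the settings on the same genes called 0 to 471 against 153 for OF in HBx,src, 326 to 852 against 628 for the diet and 119 to 765 against 492 for OF in HBx,src,p53, 2 to 95 against 40 and 612 to 1924 against 1317 for DIO+OF against NOR, and 0 to 79 against 13 and 7 to 681 against 271 for the differences.

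Arrays of the same replicate number did not deviate together (r of -0.066 to 0.098 in HBx,src and -0.082 to 0.054 in HBx,src,p53), so the numbers were taken as names. With the number as a replicate block cdkn3 had an adjusted p of 0.106 and 0.0532 for OF in the lines and 0.0507 for the difference, and cdk2 one of 0.0961 against NOR. Signals near the array median limit the precision for most of these genes.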
